A study of Mus musculus with 24 samples.

Results

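The 10 genes studied here are known to respond to glucocorticoids, and their expression was followed in the inguinal fat of mice lacking Bmal1 in adipocytes. They are Fkbp5, Tsc22d3, Zbtb16, Klf9, Sgk1, Mt1, Mt2, Glul, Ddit4 and Errfi1, chosen by name out of the 19938 genes measured by a probe set with exactly 1 gene symbol. Where a gene had several such probe sets, as Glul did, the one with the highest mean over the 24 arrays stood for it, and all 10 genes were measured. The knockout mice carried aP2-Cre+/- and Bmal1fx/fx, and the control mice carried Bmal1fx/fx without Cre, so both groups shared the floxed alleles and an effect of Cre itself cannot be told apart from the deletion. The aP2 (Fabp4) promoter is known to be active in adipocytes and in some other cells, and the pads were taken whole. Both groups had been crossed to C57BL/6J for at least 6 generations and ate chow, were kept in constant darkness for 36 h before collection began, and were fasted for 24 h. Each genotype was sampled at circadian times (CT) 0, 6, 12 and 18, with 3 mice and 1 Affymetrix array per mouse in each of the 8 groups, CT0 being the start of the subjective day. Age, sex and blood corticosterone are not used here.

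Glucocorticoids are steroid hormones of the adrenal cortex, corticosterone in the mouse, whose blood level follows the day and peaks around the start of the active night. They bind the glucocorticoid receptor, encoded by Nr3c1, which leaves its chaperones, enters the nucleus and binds paired DNA elements at genes that it activates. In fat the hormone acts on lipid storage, lipolysis and the formation of adipocytes, and fasting raises its level. The members hold different places in that response. Fkbp5 encodes an HSP90 co-chaperone that holds the receptor in a state of low affinity, a feedback brake. Tsc22d3 (GILZ), Zbtb16 (PLZF) and Klf9 encode regulators of transcription. Sgk1 encodes a serine/threonine kinase, and Glul the enzyme glutamine synthetase. Mt1 and Mt2 encode metallothioneins, small proteins that bind zinc and copper and are induced by metals as well as by glucocorticoids. Ddit4 (REDD1) encodes an inhibitor of mTORC1 and Errfi1 (MIG6) an inhibitor of the EGF receptor.

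Sequences around transcription starts are shown for 4 members. They hold elements that the receptor, the clock factor CLOCK:BMAL1 or the metal-sensing factor MTF1 is known to bind. RefSeq promoter windows of 300 bases (250 before the start and 50 after it, build GRCm38.p6) matched 9 of the 10 genes, with 17 windows, the exception being Zbtb16. The short receptor element AGAACA, searched on both strands, was found in 4 of the 17 member windows, beside 19% of all windows. These came from 2 of the 9 matched members, Tsc22d3 and Sgk1. The full receptor palindrome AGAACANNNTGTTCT, searched on both strands, was found in 3 of the 32851 windows of all genes (0.00913%). Of the 17 member windows 1 has the palindrome, a window of Sgk1. That window also holds the E-box CACGTG, the core element of CLOCK:BMAL1, which occurs in 7.15% of windows and, among the members, also in that of Fkbp5. The metal response element, searched as TGCACNC or TGCGCNC on both strands, was found in 25.7% of windows. It occurred 3 times in the window of Mt1 and 4 times in that of Mt2, and 1.97% of windows hold at least 3. It also occurred 1 time each in windows of Glul, Ddit4 and Sgk1 that are not printed. In all, 5 of the 17 member windows have it, from 5 of the 9 matched members, beside the 25.7% of all windows. The windows lie at chr10:21993640-21993939 (Sgk1, plus strand), chr17:28486100-28486399 (Fkbp5, minus strand), chr8:94178839-94179138 (Mt1, plus strand) and chr8:94172368-94172667 (Mt2, plus strand). Each is printed in the direction of its gene, with the palindrome and E-box in capitals for Sgk1, the E-box for Fkbp5 and the metal response elements for Mt1 and Mt2.
Sgk1: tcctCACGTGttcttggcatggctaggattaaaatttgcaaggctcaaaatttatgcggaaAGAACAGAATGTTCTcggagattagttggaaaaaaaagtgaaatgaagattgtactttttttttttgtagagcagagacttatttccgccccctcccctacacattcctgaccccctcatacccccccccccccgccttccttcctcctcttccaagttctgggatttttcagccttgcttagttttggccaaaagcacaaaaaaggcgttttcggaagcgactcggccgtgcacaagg
Fkbp5: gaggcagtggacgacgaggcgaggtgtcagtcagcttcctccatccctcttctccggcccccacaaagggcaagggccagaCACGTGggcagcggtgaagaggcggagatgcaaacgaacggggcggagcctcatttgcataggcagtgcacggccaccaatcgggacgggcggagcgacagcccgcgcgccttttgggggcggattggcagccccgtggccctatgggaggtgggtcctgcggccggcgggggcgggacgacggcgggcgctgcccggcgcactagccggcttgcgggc
Mt1: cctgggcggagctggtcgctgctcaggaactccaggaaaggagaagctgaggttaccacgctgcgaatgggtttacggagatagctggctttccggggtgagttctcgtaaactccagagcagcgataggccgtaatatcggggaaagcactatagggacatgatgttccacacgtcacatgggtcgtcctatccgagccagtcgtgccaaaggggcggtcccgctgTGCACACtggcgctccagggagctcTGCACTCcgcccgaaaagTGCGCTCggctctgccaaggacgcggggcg
Mt2: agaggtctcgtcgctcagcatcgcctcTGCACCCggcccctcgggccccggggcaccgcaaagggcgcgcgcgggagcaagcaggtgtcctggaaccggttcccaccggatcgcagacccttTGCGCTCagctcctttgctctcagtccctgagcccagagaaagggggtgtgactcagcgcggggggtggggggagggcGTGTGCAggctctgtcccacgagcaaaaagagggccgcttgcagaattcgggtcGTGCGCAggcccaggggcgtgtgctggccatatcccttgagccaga
A match is a description of these letters. Binding of any factor was not measured.

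The values are log2 expression levels that the authors made with RMA, and 1 unit is a factor of 2. Median levels of the arrays lay between 6.46 and 6.56, and precision is limited by how many arrays there are. Group means of Arntl, the gene of BMAL1, lay between 6.74 and 7.43 in knockout fat and between 6.34 and 7.97 in control fat, and whether its probe set lies in the deleted part is not given. In an earlier analysis of these data 4 arrays lay toward the other genotype: replicate 1 of each genotype at CT12 and replicate 3 of each at CT18. For the members, knockout replicate 1 at CT12 was the highest of its group in 10 of 10 genes, and control replicate 1 at CT12 the lowest of its group in 10 of 10. Knockout replicate 3 at CT18 was the highest of its group in 9 of 10. Control replicate 3 at CT18 was the lowest of its group in 1 of 10, and control replicate 2 in 9 of 10, so among the members control replicate 3 did not stand apart. All 4 arrays were kept as labelled, and whether samples were exchanged between genotypes was not tested. Control replicate 1 at CT18 was also the highest of its group in 10 of 10, and knockout replicate 2 at CT0 the lowest in 9 of 10. Averaged over the members, knockout replicate 2 at CT0 lay 0.58 log2 units below the mean of all arrays and control replicate 1 at CT18 lay 0.53 above it. The members therefore moved together from mouse to mouse within a group, and their directions are not independent of each other. The share of all genes highest or lowest on these arrays was not computed, and a shift of whole arrays was not tested. Knockout replicate 2 at CT0 had the lowest array quality weight (0.25), and control replicate 1 at CT18 had 1.27. The lowest correlation within any group, 0.976, also involved knockout replicate 2 at CT0.

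**Figure D1:**
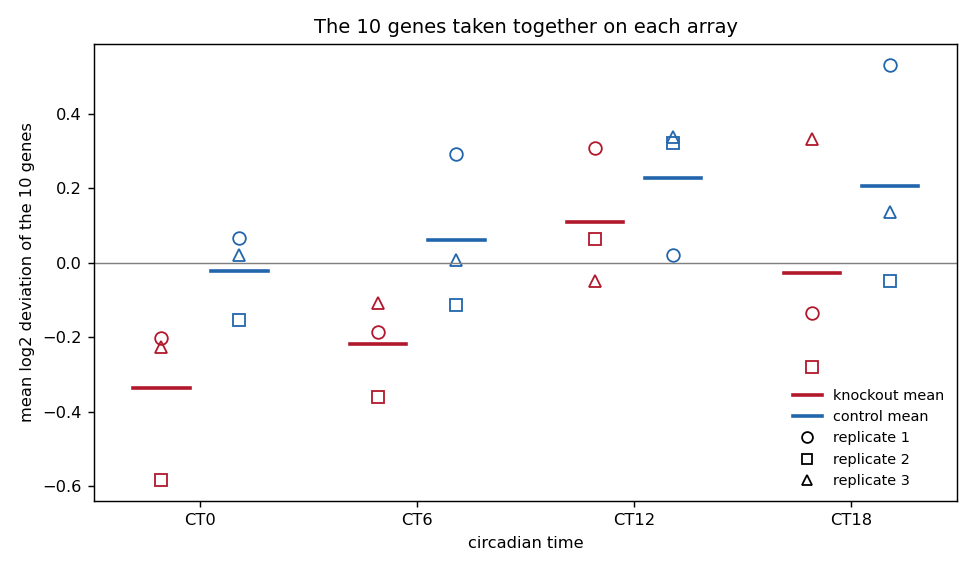
Mean deviation of the 10 members from each gene's mean over all 24 arrays (log2), 1 point per array with the replicate number as its shape, and bars at the group means, by circadian time and genotype. The lowest array is knockout replicate 2 at CT0 (-0.58) and the highest control replicate 1 at CT18 (0.53).

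All 10 members had a lower mean level in knockout than in control fat, and none passed the test. Averaged over the 4 times, the log2 differences (knockout minus control) ran between -0.41 and -0.12 with a median of -0.20, against a median of 0.00077 over all genes. By limma with Benjamini-Hochberg adjustment over 19938 genes and a threshold of 0.05, 0 of 10 members passed, where 0.0201% of all genes (4) did. At an unadjusted p under 0.05 there were 6 of 10 members, beside 6.07% of all genes. All 6 were lower in knockout fat, beside 3.58% of all genes. The estimate was below 0 for 10 of 10 members, beside 49.4% of all genes. The knockout mean lay below the control mean at all 4 times in 10 of 10 members, beside 7.77% of all genes. In 7 of 10 members at least 10 of the 12 knockout arrays fell short of the control mean at their circadian time, beside 4.78% of all genes. The members were chosen with earlier results of these data known and moved together, so these shares are a description and no test. Leaving out any 1 of the 24 arrays kept all 10 estimates below 0 and left 0 members past the threshold.

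**Figure D2:**
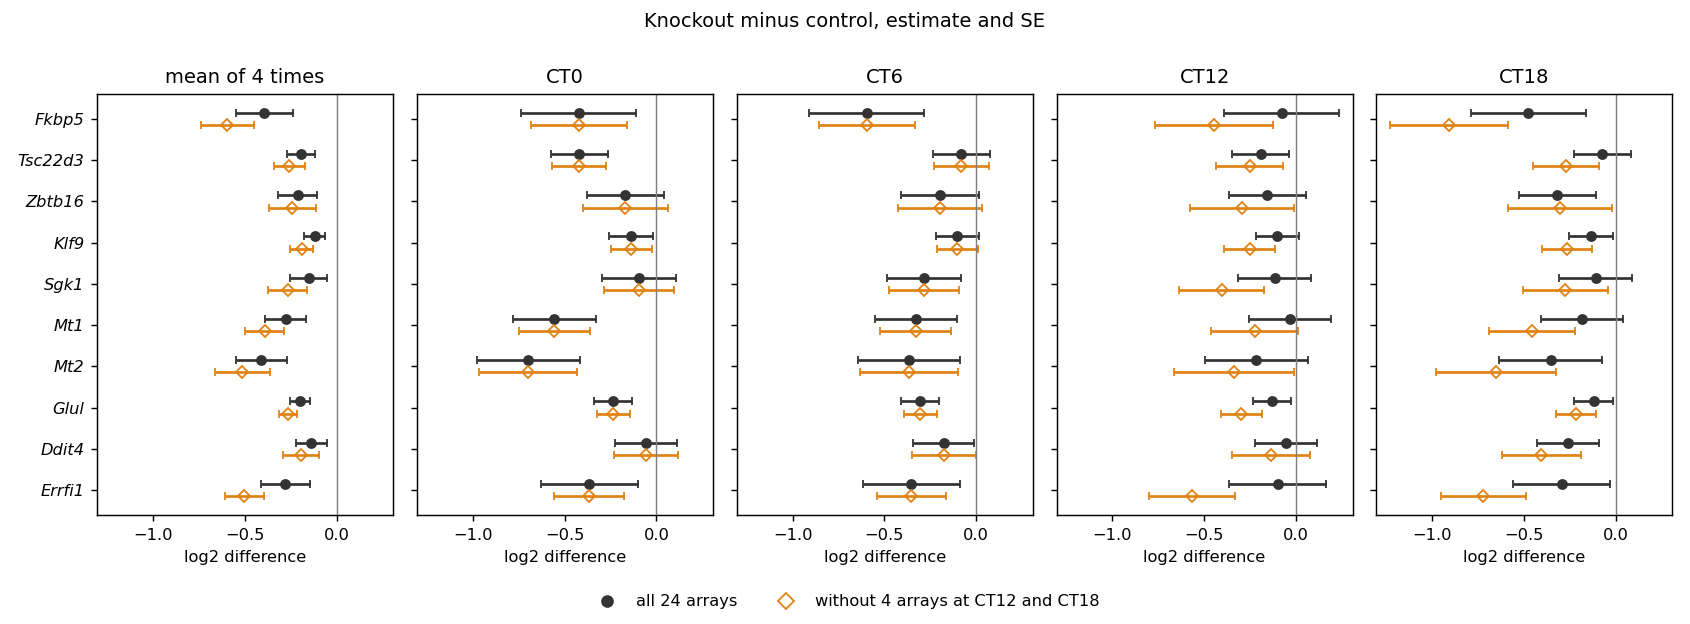
Log2 difference, knockout minus control, for each member, averaged over the 4 circadian times and at each time, with bars of 1 SE of the limma fit. Filled circles use all 24 arrays and open diamonds leave out the 4 arrays at CT12 and CT18. All 40 estimates by time lie below 0 in both, and the averages over all arrays run from -0.41 (Mt2) to -0.12 (Klf9).

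Glul, the enzyme that makes glutamine from glutamate and ammonia, had the smallest p of the members. At CT0 it read 11.43, 11.21 and 11.42 in knockout fat, against 11.52, 11.62 and 11.62 in control fat. At CT6 it read 11.26, 11.31 and 11.38 in knockout fat, against 11.78, 11.52 and 11.58 in control fat. The genotypes did not overlap at either time, and the knockout arrays were the lower. At CT12 Glul read 11.89, 11.52 and 11.62 in knockout fat, against 11.70, 11.83 and 11.92 in control fat. At CT18 it read 11.61, 11.43 and 11.77 in knockout fat, against 11.85, 11.63 and 11.70 in control fat. At these later times the genotypes overlapped, and the knockout arrays inside the control range were replicate 1 at CT12 and replicate 3 at CT18. The mean log2 difference was -0.20 ± 0.05 (SE), with an unadjusted p of 0.00106 at rank 72 of all genes and an adjusted p of 0.292 by limma.

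The metallothioneins Mt1 and Mt2 had their largest estimates at CT0. Mt2 read 11.22, 10.32 and 10.41 in knockout fat at CT0, against 11.59, 11.13 and 11.32 in control fat. Readings at CT6 were 10.50, 9.89 and 10.67 in knockout fat, against 11.28, 10.21 and 10.68 in control fat. The genotypes overlapped at both times. At CT12 Mt2 read 11.21, 11.08 and 11.14 in knockout fat, against 11.19, 11.52 and 11.37 in control fat. Readings at CT18 were 10.74, 10.26 and 11.45 in knockout fat, against 11.35, 10.96 and 11.21 in control fat. In all, 11 of 12 knockout arrays were under the mean of the controls of that time, the exception being replicate 3 at CT18. The Mt2 log2 difference was -0.70 ± 0.28 at CT0 and -0.41 ± 0.14 on average (SE, adjusted p = 0.614 by limma), the largest in size of the 10 members.

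Mt1 read 10.70, 10.03 and 10.20 in knockout fat at CT0, against 11.04, 10.78 and 10.77 in control fat. These groups did not overlap. At CT6 Mt1 read 10.39, 10.02 and 10.42 in knockout fat, against 11.06, 10.26 and 10.50 in control fat. At CT12 it read 10.83, 10.59 and 10.57 in knockout fat, against 10.48, 10.85 and 10.77 in control fat. At CT18 it read 10.44, 10.13 and 11.17 in knockout fat, against 10.96, 10.53 and 10.80 in control fat. After CT0 the genotypes overlapped at every time, and replicate 3 was the highest knockout array at CT18. The Mt1 log2 difference was -0.55 ± 0.22 at CT0 and -0.28 ± 0.11 on average (SE, adjusted p = 0.725 by limma).

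Fkbp5, the receptor's co-chaperone, had its largest estimate over all arrays at CT6. It read 8.0, 7.17 and 7.76 in knockout fat at CT0, against 8.41, 7.70 and 8.10 in control fat. At CT6 it read 7.57, 7.44 and 7.82 in knockout fat, against 8.63, 7.96 and 8.02 in control fat. All 3 knockout arrays lay below all 3 control arrays at CT6, while the groups overlapped at CT0. At CT12 Fkbp5 read 9.05, 8.83 and 8.12 in knockout fat, against 8.40, 8.94 and 8.90 in control fat. Readings at CT18 were 7.94, 7.49 and 8.90 in knockout fat, against 9.03, 8.21 and 8.51 in control fat. Knockout replicate 1 at CT12 was above all 3 controls of its time, and knockout replicate 3 at CT18 was above 2 of them. The log2 difference was -0.60 ± 0.31 (SE) at CT6, -0.08 ± 0.31 at CT12 and -0.48 ± 0.31 at CT18. Averaged over the day it was -0.39 ± 0.16 (SE, adjusted p = 0.719 by limma). The order of the times rests on single arrays: without knockout replicate 3 the CT18 estimate was -0.87, and without control replicate 1 the CT6 estimate was -0.38.

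Errfi1, the inhibitor of the EGF receptor, showed the same 2 knockout arrays apart. At CT0 it read 7.5, 8.38 and 7.98 in knockout fat, against 8.30, 8.29 and 8.36 in control fat. Readings at CT6 were 8.15, 8.22 and 8.22 in knockout fat, against 8.55, 8.56 and 8.54 in control fat. The CT6 groups were tight and did not overlap. At CT12 Errfi1 read 8.94, 8.18 and 7.99 in knockout fat, against 8.10, 8.60 and 8.71 in control fat. At CT18 it read 7.98, 8.14 and 8.85 in knockout fat, against 9.23, 8.33 and 8.30 in control fat. Replicate 1 at CT12 and replicate 3 at CT18 were the highest knockout arrays of their times, and control replicate 1 at CT12 the lowest control array. The log2 difference was -0.28 ± 0.13 on average (SE, adjusted p = 0.811 by limma). The other signalling brake, the mTORC1 inhibitor Ddit4, ranged from 6.56 to 7.19 in knockout fat and from 6.66 to 7.65 in control fat. Its log2 difference was -0.14 ± 0.08 (SE), with 11 of 12 knockout arrays under the mean of the controls of that time.

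The transcriptional regulators and Sgk1 had average differences between -0.21 and -0.12. Tsc22d3, whose protein restrains NF-kappaB and AP-1, had a log2 difference of -0.19 ± 0.08 (SE, unadjusted p = 0.0216, adjusted p = 0.722 by limma) and of -0.42 ± 0.16 at CT0 (-0.25 without knockout replicate 2). Zbtb16, a zinc finger factor, had -0.21 ± 0.11 (adjusted p = 0.850), and -0.10 without knockout replicate 2 at CT0. Klf9, a Krüppel-like factor, had -0.12 ± 0.06 (adjusted p = 0.846 by limma), with 10 of 12 knockout arrays under the mean of the controls of that time. Sgk1, the kinase, had -0.15 ± 0.10 and a range from 6.81 to 7.48 in knockout fat, against 6.79 to 7.70 in control fat. Without control replicate 1 at CT18 the averages were -0.096 for Sgk1 and -0.074 for Ddit4.

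By circadian time, the median log2 difference of the members was -0.30 at CT0, -0.30 at CT6, -0.11 at CT12 and -0.22 at CT18. No member passed at any single time by limma, where 0% of all genes passed at CT0, CT6 and CT12 and 0.00502% at CT18. At an unadjusted p under 0.05 there were 4 of 10 members at CT0 and 1 of 10 at CT6, beside 5.55% and 3.77% of all genes, and 0 of 10 at CT12 and CT18, beside 2.49% and 6.05%. Groups that did not overlap, with knockout lower, were found for Mt1 and Glul at CT0 (2 of 10 members, beside 4.47% of all genes). At CT6 they were found for Fkbp5, Zbtb16, Glul and Errfi1 (4 of 10, beside 6.27%). At CT12 only Tsc22d3 did not overlap (1 of 10, beside 5.12%), and at CT18 none of the 10 (beside 4.25%). No member had a knockout group wholly above its control group, beside 6.28% of all genes at CT0, 5.01% at CT6, 2.97% at CT12 and 4.33% at CT18. The F test of genotype by circadian time passed for 0 of 10 members and 0% of all genes by limma, with unadjusted p from 0.378 to 0.993 for the members. At an unadjusted p under 0.05 there were 0 of 10 members, beside 2.98% of all genes, so a change of the genotype difference over the day was not detectable with these arrays.

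The 4 arrays named above moved these sizes. Without the 4 arrays all 10 average differences were larger in size, from -0.59 to -0.19 with a median of -0.26. By limma 2 members then passed, but the genes of the whole table that passed also rose, from 4 to 139. The 2 calls are therefore no gain particular to the members. The median difference was then -0.30 at CT12 and -0.36 at CT18, which cannot settle whether the difference is smaller at CT12. Fkbp5 then had its largest estimate at CT18 (-0.91 ± 0.32). Glul was lower in knockout fat by -0.26 ± 0.05 (SE, adjusted p = 0.0170) and Errfi1 by -0.50 ± 0.11 (adjusted p = 0.0363). Fkbp5 stood at -0.59 ± 0.15 (adjusted p = 0.0808) and Mt2 at -0.51 ± 0.15 (adjusted p = 0.171). These arrays were singled out after the data were seen, by genes that differ by genotype. Leaving out arrays that lie toward the other genotype favours larger sizes, and the p-values without them overstate the evidence.

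Cell type markers were read beside these values, because in whole tissue fewer cells of a type and less RNA per cell cannot be told apart. Of 9 measured adipocyte markers, all lay above the median gene and 8 had an estimate below 0 in knockout fat, beside 49.4% of all genes. Their median log2 difference was -0.05. Their summed level lay between 14.11 and 14.62 in knockout fat and between 14.37 and 14.66 in control fat. All 8 endothelial markers had an estimate below 0, with a median of -0.17 and a summed level between 11.21 and 11.96 in knockout fat and between 11.47 and 11.95 in control fat. Of the endothelial markers, 6 of 8 had an unadjusted p under 0.05, beside 6.07% of all genes. They were led by Ptprb (-0.26 ± 0.09), Egfl7 (-0.16 ± 0.06) and Cdh5 (-0.24 ± 0.09). No marker of either list passed the adjusted test, and the part of these cells in the members' differences was not tested. Knockout replicate 2 at CT0, the lowest array for the members, had the lowest adipocyte sum (14.11, against 14.58 and 14.57 on the other knockout arrays of CT0). Its smooth muscle and pericyte sum was 13.19, against 12.73 and 12.53 on those arrays, and its epithelial sum was 10.77, against 9.67 and 9.47. Its endothelial sum was 11.21, against 11.62 and 11.81, and its macrophage sum 10.92, against 11.73 and 11.93. Its T cell and lymph node sum was 9.40, against 10.34 and 10.26. Control replicate 2 at CT0 also had a high smooth muscle and pericyte sum, 13.03 against 11.82 and 12.05 on the other controls of that time.

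**Figure D3:**
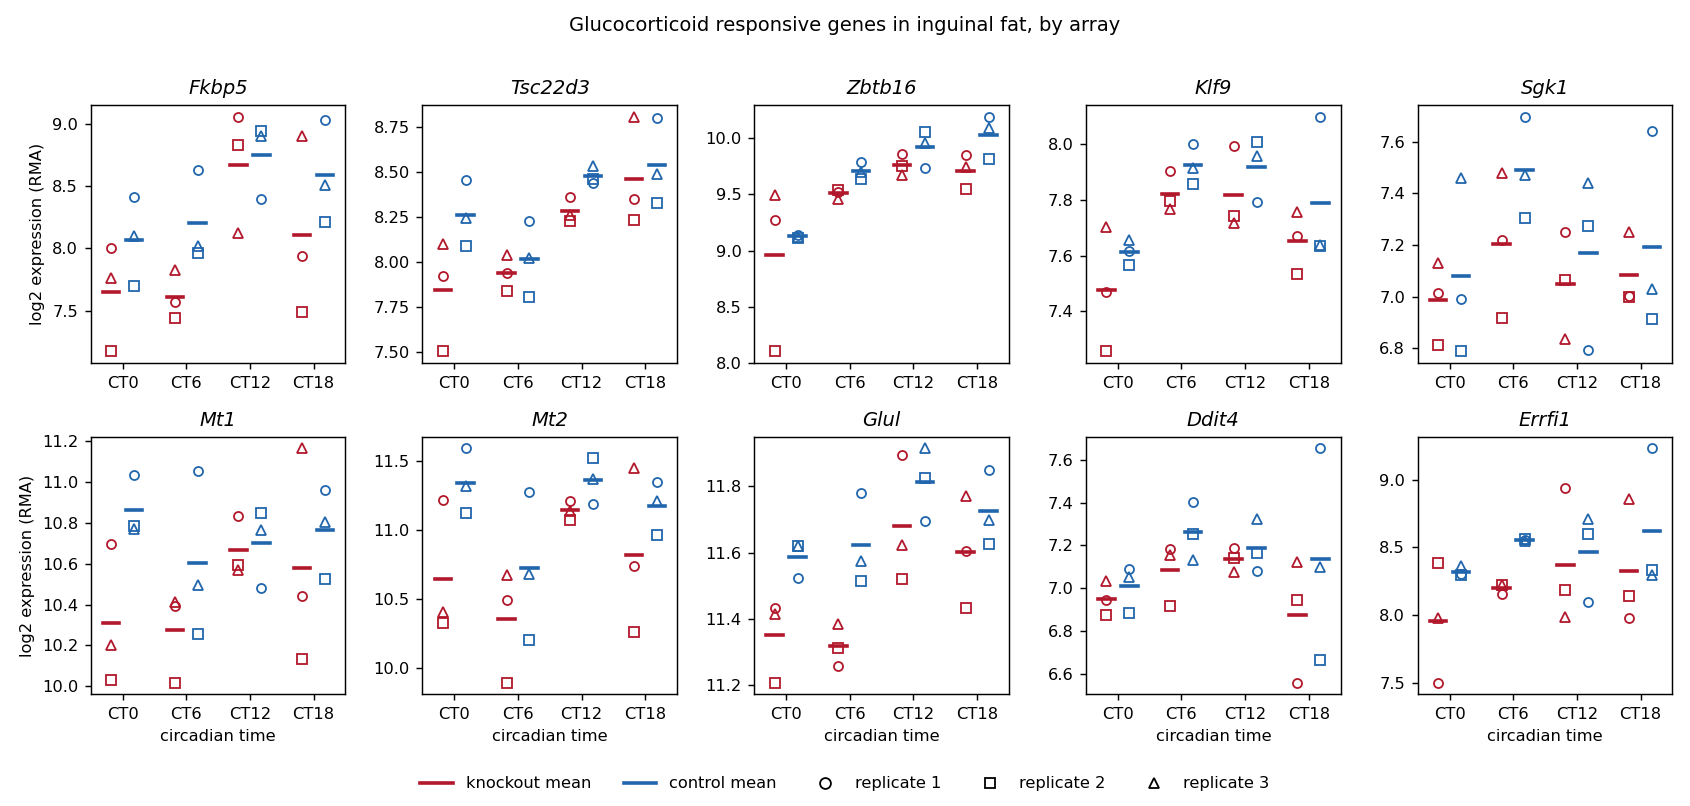
Log2 expression of each member on every array, by circadian time, with knockout points left of control points and bars at the group means (n = 3 each). Knockout means lie below control means for every member at all 4 times, with a median difference of -0.11 at CT12.

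Over the day the members had their lowest mean at CT0 or CT6, and 2 of them passed the F test of time averaged over the genotypes. Zbtb16 (F = 13.2, adjusted p = 0.0175) and Tsc22d3 (F = 10.6, adjusted p = 0.0344) changed with circadian time by limma, 2 of 10 members beside 0.883% of all genes (176). The other 8 had adjusted p-values from 0.0934 (Glul) to 0.661 (Mt1), and 6 of 10 had an unadjusted p under 0.05, beside 16.1% of all genes. Averaged over both genotypes, the lowest of the 4 times was CT0 for 7 members (30.4% of all genes) and CT6 for 3 (26.1%). The order of CT0 and CT6 was not resolved for Glul (11.470 and 11.471) or Fkbp5 (7.86 ± 0.42 and 7.91 ± 0.42, SD over 6 arrays). In knockout fat alone these 2 were lowest at CT6, and Ddit4 at CT18. The highest was CT12 for 4 members (21.7% of all genes), CT18 for 3 (43.6%) and CT6 for 3 (17.7%). The median distance between the highest and the lowest group mean was 0.40 log2 units for members in knockout fat, beside 0.19 for all genes. In control fat it was 0.36, beside 0.16 for all genes. The members lay between percentile 63.9 (Ddit4) and 99.5 (Glul) of mean level, while all genes include dim ones. The part of level in these distances was not tested. Within a single genotype 0 of 10 members passed the F test of time by limma, where 0.0702% of all genes passed in knockout fat and 0.0602% in control fat. At an unadjusted p under 0.05 there were 5 of 10 members in knockout fat (13.4% of all genes) and 2 of 10 in control fat (5.80%).

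Zbtb16 had the largest F. At CT0 it read 9.27, 8.10 and 9.50 in knockout fat, against 9.14, 9.11 and 9.12 in control fat. At CT6 it read 9.53, 9.54 and 9.46 in knockout fat, against 9.78, 9.64 and 9.70 in control fat. The controls were tight at both times and did not overlap between them. At CT12 Zbtb16 read 9.86, 9.75 and 9.68 in knockout fat, against 9.74, 10.06 and 9.96 in control fat. Readings at CT18 were 9.85, 9.54 and 9.74 in knockout fat, against 10.19, 9.82 and 10.09 in control fat. The mean over both genotypes was lowest at CT0 (9.04 ± 0.48, SD over 6 arrays), then 9.61 ± 0.12 at CT6, 9.84 ± 0.15 at CT12 and 9.87 ± 0.23 at CT18. The values at CT12 and CT18 overlapped, so their order is not resolved. Zbtb16 rose at CT12 over CT0 by 0.80 ± 0.15 (SE, adjusted p = 0.0147 by limma), with 0.81 ± 0.21 in knockout fat and 0.79 ± 0.21 in control fat. It was the 1 member of 10 to pass, beside 0.532% of all genes (106). The value of 8.10 on knockout replicate 2 at CT0 lay more than 1 log2 unit below the rest of its group. Without that array the F test gave adjusted p = 0.000353, and the genotype difference of Zbtb16 at CT0 changed sign, to 0.26 ± 0.11. Without the 4 arrays named above the F test no longer passed (adjusted p = 0.0946), and the CT12 over CT0 difference was 0.82 ± 0.18 (adjusted p = 0.0644).

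Tsc22d3 had its highest mean at CT18 over both genotypes, and its low values at CT0 and CT6 overlapped. At CT0 it read 7.92, 7.5 and 8.10 in knockout fat, against 8.45, 8.09 and 8.24 in control fat. Readings at CT6 were 7.94, 7.84 and 8.04 in knockout fat, against 8.23, 7.81 and 8.02 in control fat. The genotypes overlapped at both times, and knockout replicate 2 at CT0 was again the lowest. At CT12 Tsc22d3 read 8.36, 8.23 and 8.26 in knockout fat, against 8.44, 8.46 and 8.54 in control fat. At CT18 it read 8.35, 8.23 and 8.81 in knockout fat, against 8.80, 8.33 and 8.49 in control fat. It rose at CT18 over CT6 by 0.52 ± 0.11 (SE, adjusted p = 0.0284 by limma), with 0.53 ± 0.16 in knockout fat and 0.52 ± 0.16 in control fat. It was the 1 member of 10 to pass this contrast, beside 0.702% of all genes (140). With 1 array left out in turn the F test of Tsc22d3 lost its call in 13 of 24 fits (adjusted p from 0.0192 to 0.0671), and the CT18 over CT6 contrast in 7 of 24 (0.0103 to 0.0841). Without the 4 arrays their adjusted p-values were 0.164 and 0.171, the contrast then standing at 0.45 ± 0.12.

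Fkbp5, Klf9 and Glul had CT12 over CT0 differences that did not pass. Fkbp5 had the largest of the 10 members, 0.85 ± 0.22 (SE, adjusted p = 0.0994 by limma). Klf9 stood at 0.32 ± 0.08 (adjusted p = 0.0954). In another comparison, its 6 arrays of CT6 lay above all 6 of CT0, and the share of all genes that do so was not computed. Its means of 7.87 ± 0.085 at CT6 and 7.87 ± 0.13 at CT12 (SD over 6 arrays) do not resolve a peak time. Glul stood at 0.28 ± 0.07 (adjusted p = 0.111). Averaged over the genotypes, all 10 members had a positive CT12 over CT0 estimate, beside 55.8% of all genes, with a median of 0.28 beside 0.01. In control fat alone the median was 0.20 beside 0.03, with 1 member negative, Mt1 (-0.16 ± 0.22), and Mt2 at 0.02 ± 0.28. In knockout fat all 10 were positive, Mt1 at 0.36 ± 0.22 and Mt2 at 0.50 ± 0.28. No member passed for the difference between genotypes in this contrast by limma. For CT18 over CT6, averaged over the genotypes, 7 of 10 estimates were positive, beside 62.6% of all genes, with a median of 0.21 beside 0.04. Mt2 stood there at 0.46 ± 0.20 (adjusted p = 0.257). Among the cell type markers, the adipocyte gene Pparg passed the F test of time (adjusted p = 0.00370). It rose at CT12 over CT0 by 0.54 ± 0.10 and fell at CT18 over CT6 by 0.47 (adjusted p = 0.0111 and 0.0247). The endothelial gene Emcn passed the F test (adjusted p = 0.0446) and rose at CT12 over CT0 by 0.43 ± 0.10 (adjusted p = 0.0413). Their part in the time courses of the members was not tested.

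**Figure D4:**
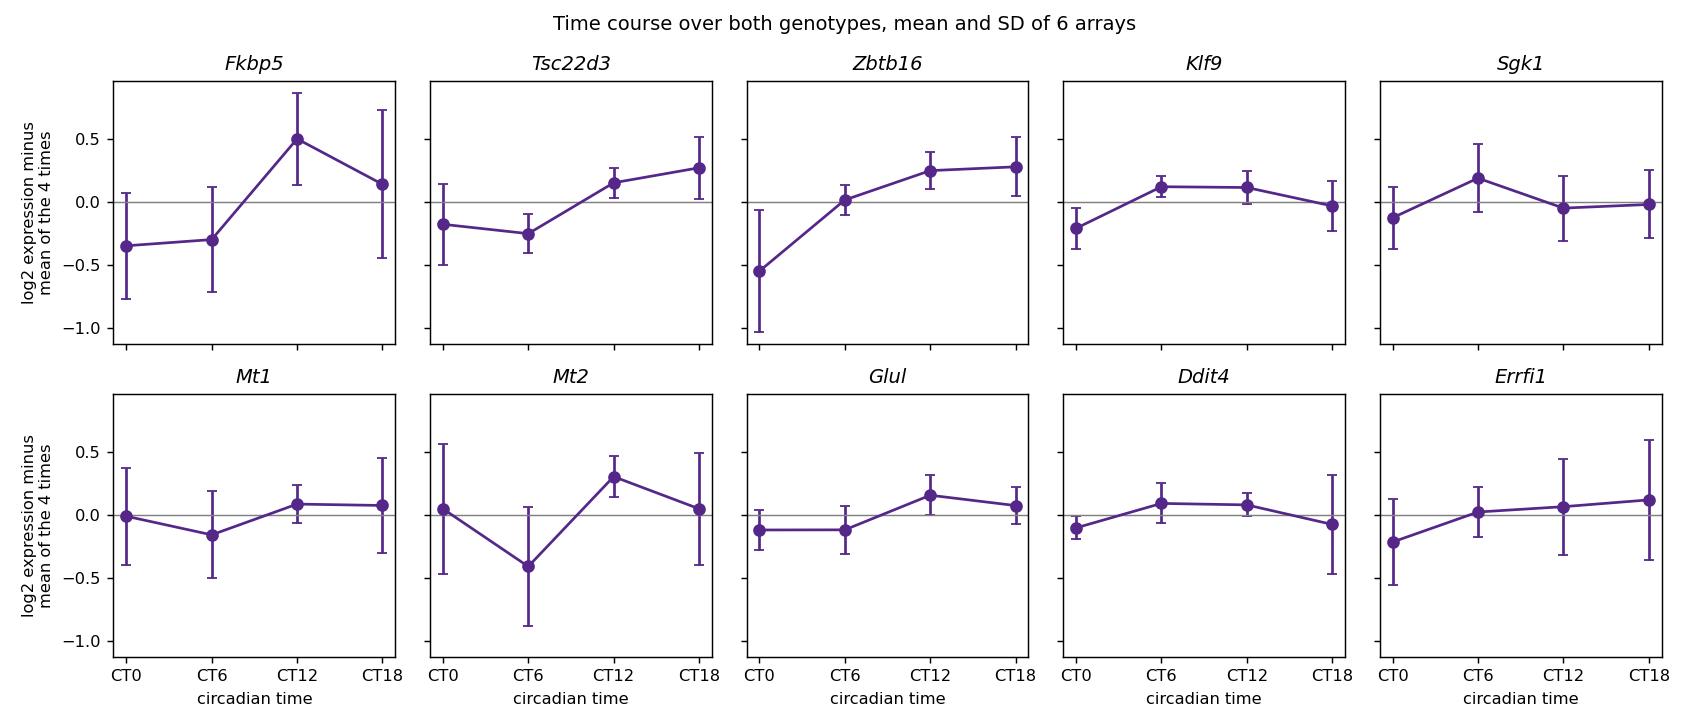
Log2 expression of each member by circadian time, as the mean over the 6 arrays of both genotypes minus the mean of the 4 times, with bars of 1 SD. Zbtb16 is lowest at CT0, Fkbp5 is low at both CT0 and CT6, Mt2 is lowest at CT6, and Fkbp5 and Mt2 are highest at CT12.

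Within groups most pairs of members varied together. Over all 24 arrays the Pearson correlation of the 45 pairs of members was positive in all 45, from 0.218 to 0.923 with a median of 0.586. With the 8 group means removed it was positive in 44, from -0.103 (Zbtb16 and Errfi1) to 0.962 with a median of 0.620. The share of positive pairs among all genes was not computed. Mt1 and Mt2 were the closest pair, at 0.923 and, with the group means removed, 0.962. These values describe arrays that share mice, RNA preparation and tissue makeup, and they carry no test. By the same measure over 24 arrays, the gene most like Fkbp5 was Lpin1 (0.927), a phosphatidate phosphatase that is itself induced by glucocorticoids, followed by Trit1 (0.891) and Glul (0.876). Lpin1 was also the most like Glul (0.913), before Acsm5 (0.898) and Garre1 (0.894). The gene most like Klf9 was the clock gene Per1 (0.887), then Snrk (0.842) and Gstt2 (0.842). Per1 is also among the other glucocorticoid induced genes read below. Tsc22d3 was most like Asph (0.926), Ranbp9 (0.912) and Ube2k (0.876). Zbtb16 was most like Fam214a (0.910), Slc43a3 (0.885) and Xdh (0.880), the last encoding xanthine dehydrogenase. Sgk1 was most like the zinc exporter Slc30a1 (0.802), Cyyr1 (0.783) and Bcl2l1 (0.761). After Mt2, Mt1 was most like Gsta3 (0.808) and Hacd2 (0.800), and after Mt1, Mt2 was most like Prrg3 (0.817) and Fkbp5 (0.791). Ddit4 was most like Nostrin (0.829), Bcl2l1 (0.822) and Sgms1 (0.809). Errfi1 was most like Tcim (0.866), Rnpc3 (0.830) and Dusp18 (0.818).

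Other genes known to be induced by glucocorticoids were read beside the members. Of 17 measured, 14 had an estimate below 0 in knockout fat, beside 49.4% of all genes, with a median log2 difference of -0.09. By limma 0 passed, and 5 had an unadjusted p under 0.05, beside 6.07% of all genes. The smallest p-values were those of Dusp1, a phosphatase of MAP kinases (-0.32 ± 0.07, adjusted p = 0.182), the sulfotransferase Sult1a1 (-0.24 ± 0.07, adjusted p = 0.441) and Lpin1 (-0.38 ± 0.13, adjusted p = 0.600). Over the day Gadd45b, a stress-induced gene, passed the F test of time (adjusted p = 0.0213), ahead of Fam107a (0.0594) and Pik3r1 (0.0815), and fell at CT18 over CT6 by 0.45 on the log2 scale (adjusted p = 0.0203). In that contrast Pdk4 stood at -0.44 ± 0.16 and Pik3r1 at 0.17 ± 0.08, not passing. Fam107a rose at CT12 over CT0 by 0.52 ± 0.11 (adjusted p = 0.0271), where Lpin1 stood at 0.77 ± 0.18 (adjusted p = 0.0542) and Pik3r1, a regulatory subunit of PI3 kinase, at 0.32 ± 0.08 (adjusted p = 0.0612).

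Upstream of the members, the glucocorticoid receptor gene Nr3c1 had a genotype difference of -0.02 ± 0.05 (SE, adjusted p = 0.989 by limma), with a 95% interval from -0.11 to 0.08. Hsd11b1, whose enzyme regenerates active glucocorticoid inside adipocytes, had -0.06 ± 0.11 (adjusted p = 0.983). Of 11 measured genes of receptors, chaperones, cofactors and steroid enzymes, 7 had an estimate below 0, beside 49.4% of all genes, with a median of -0.02. None passed, and 3 had an unadjusted p under 0.05, beside 6.07% of all genes. Those 3 were positive and encode HSP90 and its partners: Ptges3 (0.13 ± 0.05, adjusted p = 0.672), Hsp90aa1 (0.09 ± 0.04, adjusted p = 0.755) and Stip1 (0.12 ± 0.05, adjusted p = 0.755). The 10 paralogues of the members, led by Fkbp4 (0.12 ± 0.09), Sgk3 (-0.09 ± 0.06) and Tsc22d4 (-0.05 ± 0.05), had 5 estimates below 0 and a median of -0.01, with none past the test and 0 at an unadjusted p under 0.05. The metallothionein regulator and zinc transporter genes had a median of -0.02 over 5 genes, with 0 passing, Slc30a1 at -0.10 ± 0.05, Slc39a10 at -0.06 ± 0.05 and Mtf1 at -0.02 ± 0.05. Genes responsive to FOXO factors and fasting had a median of -0.01 over 12 genes, with 0 passing, Insr at 0.08 ± 0.04, Sesn1 at -0.09 ± 0.06 and Irs2 at 0.07 ± 0.05. Other genes of mTORC1 and growth factor signalling had a median of -0.00056 over 11 genes, with 0 passing, Egfr at 0.10 ± 0.06, Sesn1 at -0.09 ± 0.06 and Rptor at -0.05 ± 0.04. Several of these lists share genes. Whether any of these lists differs from the members was not tested.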

How the data were processed

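RNA of 24 fat pads was amplified, labelled with biotin and hybridised, per the labels' protocols. The authors deposited log2 values from RMA, per the submitters' processing notes; no version of RMA, array date or extraction batch was given in the sources used here. No further normalization was applied. Of 35556 probe sets, 21789 had 1 gene symbol, 1621 several and 12146 were unnamed here. The symbols were updated through Entrez numbers with a RefSeq table (21698 matched, 0 changed), which left 19938 genes with no filter on dim genes.

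The members and lists were chosen with earlier results of these data known. All 10 members are named. Of each pathway list every gene past the threshold is named and, where there are fewer than 3, those with the smallest p up to 3 are given in the comparisons described, and of the adipocyte and endothelial markers those that passed and the 3 endothelial genes with the smallest p. Nr3c1 and Hsd11b1 are named for their roles, outside that rule. For each member the 3 genes with the highest Pearson correlation are named, among genes at or above the median level. A linear model of 8 group means was fitted to each gene with limma 3.58.1 (lmFit, eBayes; R 4.3.3), Benjamini-Hochberg adjustment over 19938 genes, a threshold of 0.05 and 16 residual degrees of freedom plus 5.03 prior ones. Contrasts are knockout minus control, averaged and at each time, CT12 minus CT0, CT18 minus CT6, and F tests of time and of genotype by time. The fits were tested on simulated data. The alternatives were quantile normalization, dim genes left out, an eBayes trend, array quality weights, a replicate block, the mean of all probe sets, the compared groups alone, each array left out and, added after the data were seen, 4 arrays left out.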

Additional observations from a re-analysis of the deposited data

How the results depend on the processing

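Of 3520 member values recomputed under alternatives, 3457 kept their direction and side of the threshold, 42 crossed the threshold and 21 changed sign. No member passed for the average genotype difference in any of the settings in the methods other than the 4-array exclusion. The 4-array exclusion, chosen after the data were seen, gave 2 members for the average genotype difference and 0 for the F test of time, CT12 over CT0 and CT18 over CT6. Array quality weights gave 4 members for the F test of time, 4 for CT12 over CT0 and 1 for the F test in control fat, and turned the Zbtb16 difference at CT0 to 0.16. Fits of the compared groups alone gave 0 for CT12 over CT0 and 0 for CT18 over CT6. The last fits also used fewer arrays, and the causes of these changes were not tested. With 1 array left out in turn, the number of members passing ran from 1 to 3 for the F test of time, 0 to 1 for it in control fat, 0 to 2 for CT12 over CT0 and 0 to 1 for CT18 over CT6. Zbtb16 lost its CT12 over CT0 call without knockout replicate 1 or control replicate 2 at CT12.

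Genotype differences at single times that changed sign with 1 array left out ranged as follows. At CT0 Zbtb16 ranged from -0.44 to 0.26 and Sgk1 from -0.24 to 0.10. At CT6 Tsc22d3 ranged from -0.19 to 0.023. At CT12 the ranges were -0.27 to 0.19 for Fkbp5, -0.30 to 0.018 for Sgk1, -0.14 to 0.041 for Mt1, -0.11 to 0.011 for Ddit4 and -0.38 to 0.091 for Errfi1. At CT18 they were -0.25 to 0.056 for Tsc22d3, -0.21 to 0.017 for Klf9, -0.25 to 0.11 for Sgk1, -0.48 to 0.040 for Mt1 and -0.56 to 0.010 for Errfi1. The CT18 over CT6 difference of Errfi1 ranged from -0.057 to 0.18. The background moved too. The 4 genes of the whole table that passed for the average genotype difference became 0 to 30 with 1 array left out, 0 to 51 under the other settings and 139 without the 4 arrays. The 176 genes of the F test of time became 88 to 291, 154 to 594 and 75, the 106 of CT12 over CT0 became 30 to 170, 38 to 441 and 69, and the 140 of CT18 over CT6 became 40 to 432, 91 to 238 and 28.

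Correlations over genes between arrays with the same replicate number ran from -0.37 to 0.37. They were above 0.1 in 5 of 12 pairs, which were all 3 pairs at CT0 (0.189 to 0.374), 1 at CT6, 0 at CT12 and 1 at CT18. The numbers were therefore not taken to pair the samples. With replicate number as a block, 0 members passed for the average genotype difference and 2 for the F test of time, as without it. With 3 arrays a group and 4 times over a single day, precision at single times is low, and rhythm cannot be told from other change.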

Other observations

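Glul has a second probe set, not used above because its mean over the arrays is lower. It gave a genotype difference of -0.32 ± 0.07 (SE, averaged over the 4 times), in the same direction as the -0.20 ± 0.05 of the probe set that stood for the gene. Of the measured cell type lists, the 7 T cell and lymph node markers all had an estimate below 0 in knockout fat (median log2 difference of -0.11). Of 7 epithelial markers 1 did (median of 0.11), beside 49.4% of all genes. No marker of either list passed the test by limma.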
